A study of Mus musculus with 6 samples.

Results

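The genes of transforming growth factor beta (TGF-beta) and bone morphogenetic protein (BMP) signalling were examined in injured mouse femoral arteries after local vasostatin-2 or saline. They were chosen by symbol from a list of 42 genes of the pathway, and all 42 were among the 18476 genes of the deposited table. In the vasostatin-2 group, arteries of wild-type C57BL/6 mice were injured with a wire, treated with vasostatin-2 from outside the vessel and taken on day 3 (3 libraries). In the saline group, wild-type C57BL/6 arteries were injured and collected on the same schedule but received saline in the same way (3 libraries). Vasostatin-2 is a fragment of the secretory-granule protein chromogranin A. There was no uninjured group, so every value below describes an injured vessel, and the sources used here give neither the age or sex of the mice nor how many animals went into a library.

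TGF-beta ligands are secreted in latent form, held in the matrix by latent TGF-beta binding proteins, and once released they bind the type II receptor Tgfbr2, which recruits the type I receptor Tgfbr1 and leads to phosphorylation of SMAD2 and SMAD3. BMP ligands act through Bmpr2 and the type I receptors Bmpr1a, Bmpr1b and Acvr1 on SMAD1 and SMAD5, and both branches share SMAD4. Endothelial cells add the type I receptor Acvrl1 and its coreceptor endoglin. In the artery wall this signalling is known for its part in the contractile state of smooth muscle and in matrix production.

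Each library was labelled a biological replicate and held between 19333730 and 20105995 estimated counts, so 3 counts corresponded to between 0.149 and 0.155 CPM, the read count scaled to library size. Although the labels name vascular smooth muscle cells, the RNA came from whole arteries, and markers of all 12 cell types listed were present. Contractile smooth muscle markers summed to between 834 and 2096 TPM, a level scaled to library size and gene length, with vasostatin-2, against 780.0 to 1743 TPM with saline, and macrophage markers to between 13070 and 13870 TPM, against 10470 to 15070 TPM. Saline replicate 2 stood apart in red cell markers (43390 TPM, against 1149 to 9494 TPM in the other 5 libraries), saline replicate 3 in Schwann cell markers (939.7 TPM, elsewhere at most 267 TPM) and vasostatin-2 replicate 3 in skeletal muscle markers (1340.0 TPM, elsewhere at most 143 TPM). Platelet markers alone had sums that did not overlap (686 to 798 TPM with vasostatin-2, 970 to 1203 TPM with saline), with 4 lower and 2 higher. All tested neutrophil, T and NK cell, red cell and Schwann cell markers were lower with vasostatin-2. All contractile smooth muscle, adventitial fibroblast and skeletal muscle markers were higher. The part of these markers in the members' values was not tested. In such bulk samples, fewer cells of a type and less RNA per cell cannot be told apart.

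The members the pathway's activity is usually read from are the ID genes, which encode inhibitors of helix-loop-helix transcription factors and are induced by BMP signalling through SMAD1 and SMAD5. The promoter windows of Id2 and Id3, the ID genes with a RefSeq window whose levels are described most closely below, are shown to place the SMAD elements beside those levels. Each runs from 250 bases before to 50 bases after the annotated start (RefSeq, GRCm38.p6), with capitals marking GGCGCC, a GC-rich element bound by SMAD1 and SMAD5, and CAGAC (or GTCTG on the other strand), the element bound by SMAD3 and SMAD4. The Id2 window is chr12:25096043-25096342 on the minus strand and the Id3 window chr4:136143572-136143871 on the plus strand.
Id2: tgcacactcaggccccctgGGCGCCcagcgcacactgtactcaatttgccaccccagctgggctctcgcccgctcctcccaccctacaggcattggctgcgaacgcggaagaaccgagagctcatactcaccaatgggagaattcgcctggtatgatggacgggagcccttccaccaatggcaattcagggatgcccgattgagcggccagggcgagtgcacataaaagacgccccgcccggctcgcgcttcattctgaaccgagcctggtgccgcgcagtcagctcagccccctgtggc
Id3: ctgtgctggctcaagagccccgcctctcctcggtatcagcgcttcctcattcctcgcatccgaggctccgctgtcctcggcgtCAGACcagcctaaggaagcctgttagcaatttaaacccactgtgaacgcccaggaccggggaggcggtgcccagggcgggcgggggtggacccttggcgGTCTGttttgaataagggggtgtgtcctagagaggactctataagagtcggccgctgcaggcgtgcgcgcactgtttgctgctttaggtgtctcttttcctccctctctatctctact
The Id2 window held 1 GGCGCC and 0 CAGAC, and the Id3 window 0 GGCGCC and 2 CAGAC. Only exact matches inside the windows were counted, so elements farther away or of another form were not looked for. Windows were counted for 28 of the 42 members. Smad2, Smad4, Smad7 and Bambi, which share a chromosome, were left out because of that location and not because of their windows. The other members not counted, such as Acvrl1, Id1 and Skil, had no window among the sequences used. For each member 1 window was counted, while for all genes every window given was counted, on all chromosomes. The sets compared differ in these respects. GGCGCC was found in 9 of the 28 member windows (32.1%), against 11.9% of all 32851 windows of the same length. CAGAC was found in 12 of the 28 (42.9%), against 49.6%. The windows were not matched for base composition: their median GC content was 63.7% for the members and 52.7% for all windows. Its part in these shares was not tested.

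Levels of the members spanned a wide range at day 3. Tgfbi, a matrix protein named for its induction by TGF-beta, was the most abundant member at 553 ± 75.5 TPM (SD over all 6 libraries), followed by the endothelial coreceptor Eng at 255 ± 29.1 TPM and Tgfb1 at 223 ± 14.5 TPM. At least 100 TPM on average was reached by 7 members, and 3 stayed under 2 TPM, namely the receptor Bmpr1b and the BMP antagonists Nog and Grem1. Grem1 lay between 0.440 and 0.830 TPM and failed the filter on low counts, so 41 members were tested.

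**Figure D1:**
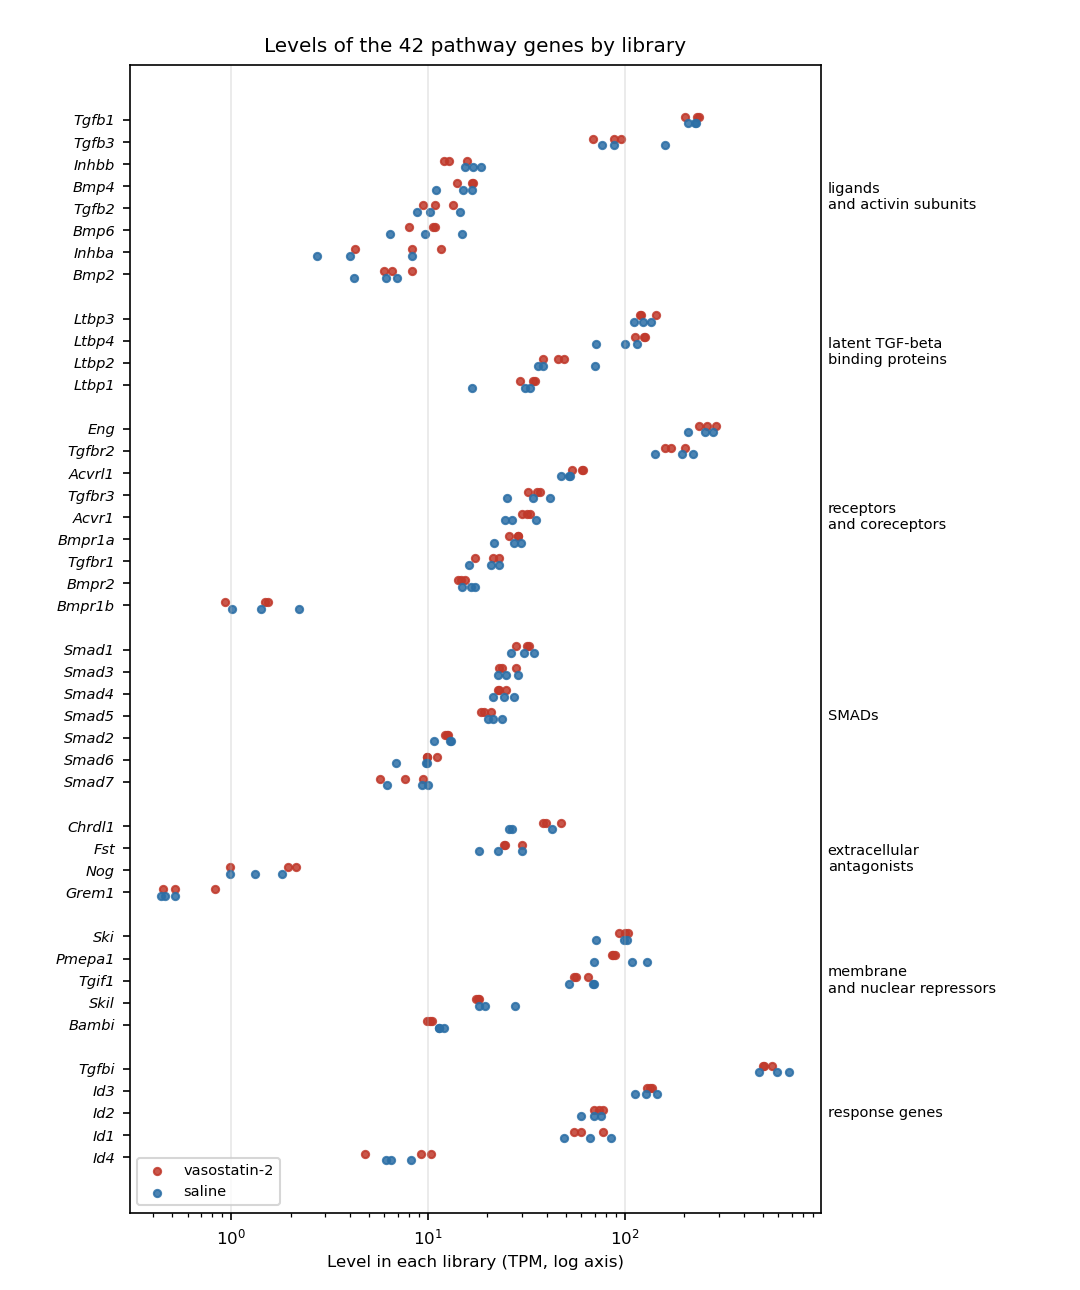
Level of each of the 42 members in each library (TPM on a log axis), grouped by role and ordered by mean level within a role. Each point is a library, red for vasostatin-2 and blue for saline. The points of the groups lie over one another for most genes, while levels span from under 1 TPM (Grem1) to 683 TPM (Tgfbi in saline replicate 1).

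None of the 41 tested members passed edgeR's quasi-likelihood test at a Benjamini-Hochberg adjusted p of 0.05; the smallest such p was 0.607, for Acvrl1, and over all 14557 genes the share called was 0.0%. An unadjusted p under 0.05 was reached by 3 members, or 7.32%, where 7.14% of all tested genes reached it, so the members stood at the background. Of these, Acvrl1 and Ltbp4 were higher with vasostatin-2 (3.28% of all genes) and Inhbb was lower (3.86% of all genes). No member reached an unadjusted p under 0.01, which 1.7% of all genes did. DESeq2 called 0 members at an adjusted p of 0.05 (all genes: 0.809%) and gave 4 at an unadjusted p of 0.05 (all genes: 6.65%), adding Chrdl1 to the same 3 genes. limma-voom called 0 members at an adjusted p of 0.05, with 0.0% over all genes, and gave 3 at an unadjusted p of 0.05 (all genes: 10.8%). The authors' deposited table, whose test was also DESeq2, held 0 members with a q-value under 0.05, beside 98 of 18401 genes. It held 4 with a p-value under 0.05, beside 1045 of 18401 genes. By edgeR the unadjusted count was 0 when vasostatin-2 replicate 2 was left out (all genes: 3.36%) and 0 when vasostatin-2 replicate 3 was left out (all genes: 4.74%). It was 5 when saline replicate 1 was left out (all genes: 7.14%) and 6 when saline replicate 3 was left out (all genes: 7.57%).

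The members' median log2 fold change was 0.037, with 24 higher and 17 lower, beside a median of −0.001 over all genes tested. In 40 of the 41 the log2 fold change was under 0.5 in size, the exception being Inhba, and in 32 (78.0%) it was under 0.25, against 79.4% of all genes. The median standard error of a member's log2 fold change was 0.15, so changes of that size were not separable from the spread between libraries. In 6 members (14.6%) the CPM values of the groups did not overlap, against 12.8% of all genes tested. Acvrl1, Ltbp4 and Smad6 were the higher ones (6.07% of all genes) and Bmpr2, Skil and Bambi the lower ones (6.73% of all genes). In TPM the groups of Acvrl1 and Bambi were also apart, while those of Ltbp4, Smad6, Bmpr2 and Skil overlapped.

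**Figure D2:**
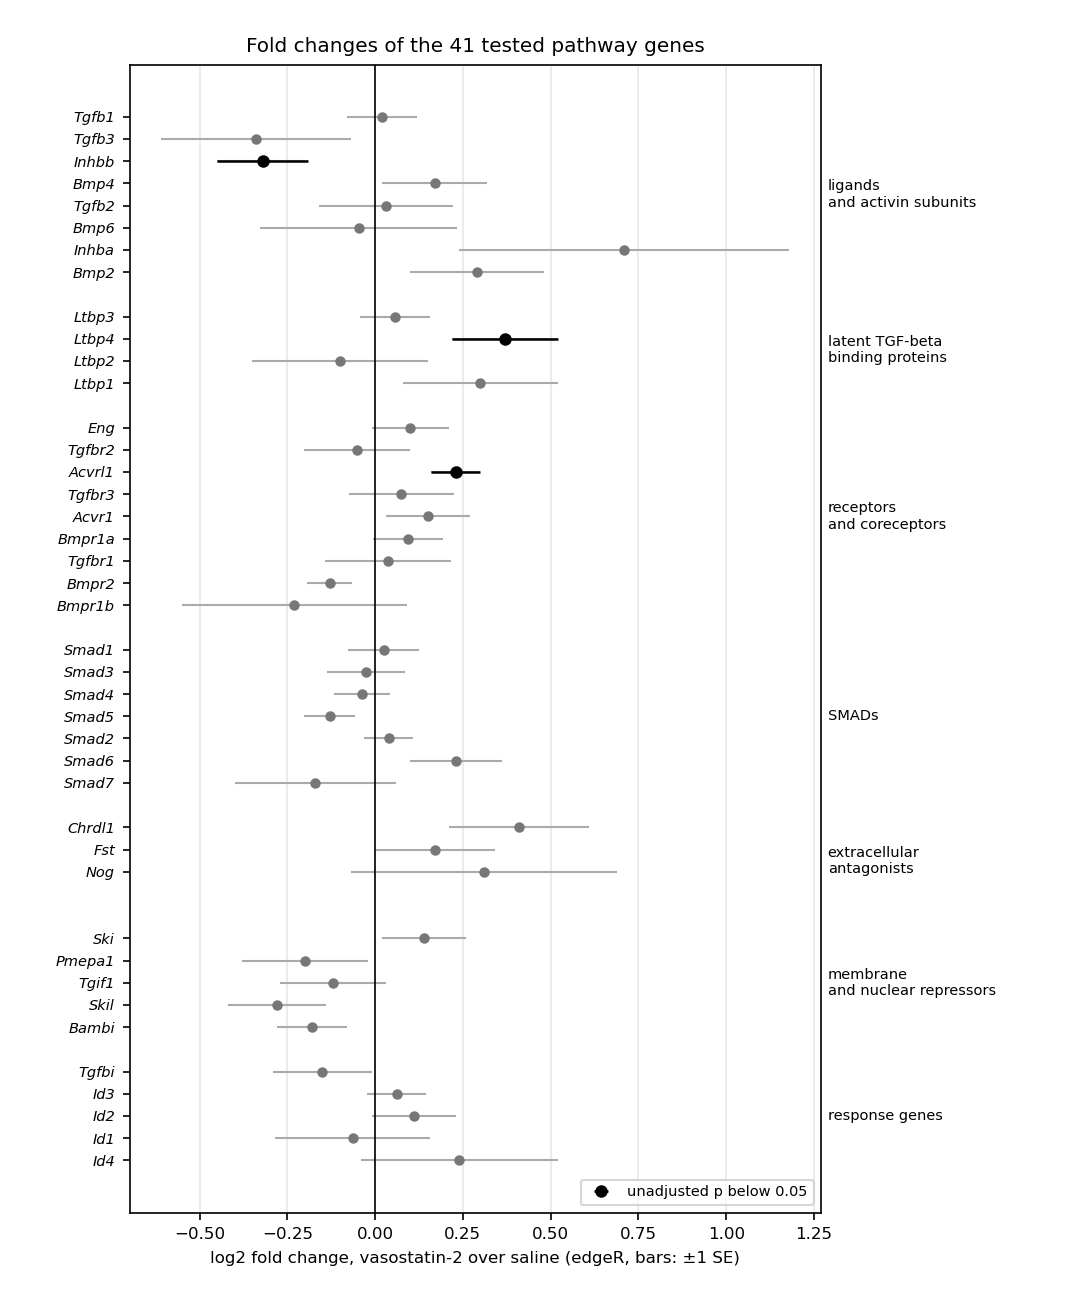
log2 fold change of each tested member, vasostatin-2 over saline, with bars of ±1 standard error from edgeR, grouped by role. Black points mark an unadjusted p below 0.05 (Acvrl1, Ltbp4 and Inhbb); Inhba, at 0.71 ± 0.47, lies farthest from 0.

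Among the member ligands the order of levels was led by Tgfb1. Its range over the 6 libraries (200.5 to 239 TPM) lay above that of every other member ligand. It overlapped that of Gdf10, a ligand outside the members described further below (112 to 317 TPM). Tgfb3 followed at 69.1 to 160.2 TPM, and Tgfb2 was at 8.82 to 14.5 TPM, so that Tgfb1 exceeded Tgfb2 by 17.8- to 24.6-fold in the vasostatin-2 libraries and by 15.8- to 25.5-fold in the saline libraries. The ranges of Inhbb, Bmp4, Tgfb2, Bmp6, Inhba and Bmp2 each overlapped that of the next in order. Tgfb1 was at 212, 245 and 252 CPM in vasostatin-2 arteries, against 234, 249 and 215 CPM in saline arteries, which is 236 ± 21.4 against 233 ± 17.3 CPM (SD, n = 3 each). The groups overlapped fully, and the log2 fold change was 0.02 (SE 0.10). Tgfb3 was at 114, 145 and 158 CPM in vasostatin-2 arteries, against 256, 132 and 140.3 CPM in saline arteries. Saline replicate 1 alone was above the vasostatin-2 range, and without it the log2 fold change of −0.34 (SE 0.27) became 0.031.

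Of the activin subunits, Inhbb, which forms activin B, was at 32.9, 25.2 and 26.5 CPM in vasostatin-2 arteries, against 31.2, 37.0 and 37.6 CPM in saline arteries. Vasostatin-2 replicate 1 reached into the saline range, and the remaining vasostatin-2 libraries lay below it. The log2 fold change was −0.32 (SE 0.13), with an unadjusted p of 0.0387 and an adjusted p of 0.684 by edgeR's quasi-likelihood test. Leaving out single libraries gave −0.45 to −0.25, with an unadjusted p under 0.05 in 2 of 6 cases. The gene lies on chromosome 1 from 119415463 to 119422248 (GRCm38.p6). Inhba, which forms activin A, varied most of all members, with a coefficient of variation of 52.2% over the 6 libraries against a median of 15.3% for the tested members. It was at 13.6, 26.2 and 36.9 CPM in vasostatin-2 arteries, against 25.4, 9.25 and 12.3 CPM in saline arteries, a log2 fold change of 0.71 (SE 0.47) with overlapping groups. The BMP ligand Bmp2 was at 10.5, 11.5 and 14.4 CPM in vasostatin-2 arteries, against 10.3, 7.70 and 11.7 CPM in saline arteries (log2 fold change 0.29, SE 0.19). Tgfb2, Bmp4 and Bmp6 had log2 fold changes of 0.031, 0.17 and −0.047. Bmp6 shares its position with the more abundant Txndc5 (319 TPM against 10.04 TPM for Bmp6), so reads of the overlapping part could not be assigned with certainty.

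The latent TGF-beta binding proteins are a family named for tethering latent ligand to the matrix. Whether each member does so was not measured here. Ltbp3 and Ltbp4 were the most abundant, at 125 ± 11.7 and 108 ± 20.5 TPM over all libraries, with overlapping ranges, followed by Ltbp2 and Ltbp1. Ltbp4 was at 277, 309 and 308 CPM in vasostatin-2 arteries, against 237, 183 and 273 CPM in saline arteries. All vasostatin-2 libraries were above all saline libraries, although vasostatin-2 replicate 1 and saline replicate 3 were nearly equal. Means were 298 ± 18.3 against 231 ± 45.4 CPM (SD, n = 3 each), and the log2 fold change was 0.37 (SE 0.15) with an unadjusted p of 0.0421 and an adjusted p of 0.684 by edgeR's quasi-likelihood test. The change was 0.22 without saline replicate 2, the library with the lowest value, and the unadjusted p was under 0.05 in 1 of the 6 fits that left out a library. The gene lies on chromosome 7 from 27305140 to 27339720. Ltbp1 was at 79.2, 92.3 and 94.6 CPM in vasostatin-2 arteries, against 86.5, 47.4 and 83.0 CPM in saline arteries, where again saline replicate 2 alone was low; its log2 fold change was 0.30 (SE 0.22), and 0.067 without that library. Ltbp3 was at 286 ± 30.7 CPM in vasostatin-2 arteries, against 276 ± 15.7 CPM in saline arteries (log2 fold change 0.056, SE 0.10). Ltbp2 had a log2 fold change of −0.10 (SE 0.25).

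Among the receptors Eng led in every library, with Tgfbr2 next at 181 ± 29.1 TPM and Acvrl1 at 54.5 ± 5.46 TPM, and these levels were clear of the remaining 6 receptors and coreceptors. From Tgfbr3, Acvr1 and Bmpr1a to Tgfbr1 and Bmpr2 each range overlapped the next, and Bmpr1b was far lower at 1.43 ± 0.455 TPM. The type II receptor Tgfbr2 exceeded its type I partner Tgfbr1 by 6.98- to 11.6-fold with vasostatin-2 and by 6.17- to 12.04-fold with saline, on the TPM scale. Acvrl1, the type I receptor of endothelial cells, had the smallest p of all members. It was at 95.1, 106 and 108 CPM in vasostatin-2 arteries, against 89.0, 86.9 and 88.8 CPM in saline arteries. The groups were apart, with vasostatin-2 the higher, and the saline values were close together. Means were 103 ± 7.07 against 88.2 ± 1.16 CPM (SD, n = 3 each), and the log2 fold change was 0.23 (SE 0.07) with an unadjusted p of 0.0146 and an adjusted p of 0.607 by edgeR's quasi-likelihood test. Leaving out single libraries gave 0.19 to 0.28, with an unadjusted p under 0.05 in 4 of 6 cases. The gene lies on chromosome 15 from 101128522 to 101145336. The summed level of 9 endothelial markers was 1230.0 to 1395 TPM with vasostatin-2 and 1167 to 1424 TPM with saline, with 5 markers higher and 4 lower and none of them at 0 throughout. The sums of the groups thus overlapped. At an unadjusted p of 0.05 by edgeR, 1 of these markers was higher (all genes: 3.28%) and 1 lower (all genes: 3.86%). The part of these markers in the Acvrl1 values was not tested.

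Its coreceptor Eng was at 400.5, 439 and 487 CPM in vasostatin-2 arteries, against 412, 369 and 457 CPM in saline arteries, overlapping groups with a log2 fold change of 0.10 (SE 0.11). Eng overlaps Fpgs (27.2 TPM) on the chromosome. The BMP type II receptor Bmpr2 was at 77.2, 80.3 and 74.2 CPM in vasostatin-2 arteries, against 87.3, 81.8 and 83.7 CPM in saline arteries. All vasostatin-2 libraries were below all saline libraries, by a small margin, and the log2 fold change was −0.13 (SE 0.063; unadjusted p = 0.0856, adjusted p = 0.725 by edgeR). Tgfbr2 was at 410.4 ± 49.4 CPM in vasostatin-2 arteries, against 426 ± 75.5 CPM in saline arteries (log2 fold change −0.052, SE 0.15). The BMP type I receptors Bmpr1a and Acvr1 and the coreceptor Tgfbr3 had log2 fold changes of 0.093, 0.15 and 0.075, Tgfbr1 of 0.037 and Bmpr1b of −0.23 (SE 0.32).

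The SMADs, which carry the signal to the nucleus, differed little. All 7 had a log2 fold change under 0.25 in size, and their median was −0.026. Smad1 was the most abundant at 30.6 ± 3.00 TPM, followed by Smad3, Smad4 and Smad5, and their ranges overlapped from each to the next. Smad2, at 10.8 to 13.1 TPM, lay below Smad5 in all libraries. Of the SMADs of the BMP branch, Smad1 was at 45.1 ± 3.75 against 44.4 ± 4.09 CPM and Smad5 at 63.3 ± 3.96 against 69.3 ± 3.44 CPM (vasostatin-2 against saline, SD, n = 3 each), log2 fold changes of 0.024 (SE 0.10) and −0.13 (SE 0.074). Of those of the TGF-beta branch, Smad3 was at 60.7 ± 7.61 against 61.9 ± 5.51 CPM, with a log2 fold change of −0.026 (SE 0.11), and Smad2 had one of 0.039 (SE 0.07). The shared Smad4 had a log2 fold change of −0.038 (SE 0.08).

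The inhibitory SMADs are themselves induced by the pathway. Smad6, which acts mainly on the BMP branch, was at 14.0, 13.9 and 15.3 CPM in vasostatin-2 arteries, against 13.3, 10.3 and 13.3 CPM in saline arteries. The groups did not overlap, but the gap between them was narrow and saline replicate 2 was well below the rest. The log2 fold change was 0.23 (SE 0.13; unadjusted p = 0.116, adjusted p = 0.748 by edgeR), and 0.12 without that library. Smad7, at 11.5, 15.1 and 17.8 CPM in vasostatin-2 arteries, against 20.4, 11.9 and 17.5 CPM in saline arteries, showed wide overlap and a log2 fold change of −0.17 (SE 0.23).

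The extracellular antagonists bind ligands before they reach a receptor. Chrdl1, a chordin-like BMP antagonist, was at 77.9, 96.8 and 80.8 CPM in vasostatin-2 arteries, against 50.9, 57.1 and 84.1 CPM in saline arteries. Saline replicate 3 lay within the vasostatin-2 range, and the other saline libraries lay below it. The log2 fold change was 0.41 (SE 0.20; unadjusted p = 0.0749, adjusted p = 0.714 by edgeR), and 0.66 without saline replicate 3. Adventitial fibroblast markers summed to 4171 to 4464 TPM with vasostatin-2 and 2593 to 4301 TPM with saline. All 7 were higher, 3 of them at an unadjusted p of 0.05 by edgeR (all genes: 3.28%), and none was at 0 throughout. Of the 8 monocyte and macrophage markers, 6 were higher, 3 of them at that p, and 2 were lower. The part of the fibroblast and macrophage markers in the Chrdl1 values was not tested. Fst, follistatin, which neutralises activins, was at 32.0, 39.0 and 31.7 CPM in vasostatin-2 arteries, against 37.7, 24.9 and 28.9 CPM in saline arteries, overlapping groups with a log2 fold change of 0.17 (SE 0.17). Noggin (Nog), a BMP antagonist, was low, at 0.919 to 1.99 CPM in vasostatin-2 arteries, against 0.897 to 1.62 CPM in saline arteries, and its log2 fold change was 0.31 (SE 0.38). Gremlin (Grem1), another BMP antagonist, was at 0.357, 0.651 and 0.408 CPM in vasostatin-2 arteries, against 0.354, 0.362 and 0.399 CPM in saline arteries, and was not tested.

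Inside the cell, Bambi is a pseudoreceptor that blocks type I receptors, Pmepa1 a membrane protein that withholds SMADs, and Ski, Skil and Tgif1 nuclear corepressors of SMAD-driven transcription. Of these 5, 4 had a negative log2 fold change, with a median of −0.18 and none at an unadjusted p of 0.05. Skil, which TGF-beta induces as a feedback repressor, was at 56.2, 57.1 and 55.2 CPM in vasostatin-2 arteries, against 84.7, 60.3 and 59.2 CPM in saline arteries. The vasostatin-2 libraries were tightly grouped and all below the saline libraries, of which replicate 1 was far above the others. The log2 fold change was −0.28 (SE 0.14; unadjusted p = 0.0925, adjusted p = 0.728 by edgeR), and −0.09 without saline replicate 1. Ski, its relative, was at 249.7, 266 and 278 CPM in vasostatin-2 arteries, against 265, 201 and 256 CPM in saline arteries, with a log2 fold change of 0.14 (SE 0.12) and overlapping groups.

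Pmepa1, a further TGF-beta-induced feedback gene, was at 198, 192 and 193 CPM in vasostatin-2 arteries, against 278, 162 and 233 CPM in saline arteries. As for Skil, the vasostatin-2 libraries were close together, here inside a wide saline range with its highest value in replicate 1 and its lowest in replicate 2. Its log2 fold change of −0.20 (SE 0.18) was −0.39 without saline replicate 2 and −0.02 without saline replicate 1. Bambi was at 10.2, 10.4 and 9.75 CPM in vasostatin-2 arteries, against 11.0, 12.5 and 11.1 CPM in saline arteries, groups that did not overlap, with a log2 fold change of −0.18 (SE 0.10; unadjusted p = 0.118, adjusted p = 0.75 by edgeR). Tgif1 had one of −0.12 (SE 0.15).

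None of the 5 response genes reached an unadjusted p of 0.05. Id3 was the most abundant ID gene at 113 to 146 TPM, above the ranges of Id2 (59.8 to 76.9 TPM) and Id1 (49.1 to 85.2 TPM), which overlapped, and Id4 was lowest at 4.78 to 10.3 TPM. Id3 was at 59.7, 57.8 and 61.7 CPM in vasostatin-2 arteries, against 55.3, 53.1 and 63.3 CPM in saline arteries (log2 fold change 0.061, SE 0.083). Id2 was at 42.2, 44.8 and 46.6 CPM in vasostatin-2 arteries, against 35.1, 48.3 and 40.8 CPM in saline arteries (log2 fold change 0.11, SE 0.12). In both the vasostatin-2 values lay inside the saline range. Id1 and Id4 had log2 fold changes of −0.064 (SE 0.22) and 0.24 (SE 0.28). Tgfbi was at 741, 663 and 669.7 CPM in vasostatin-2 arteries, against 872, 819 and 615 CPM in saline arteries, a log2 fold change of −0.15 (SE 0.14) with overlapping groups.

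**Figure D3:**
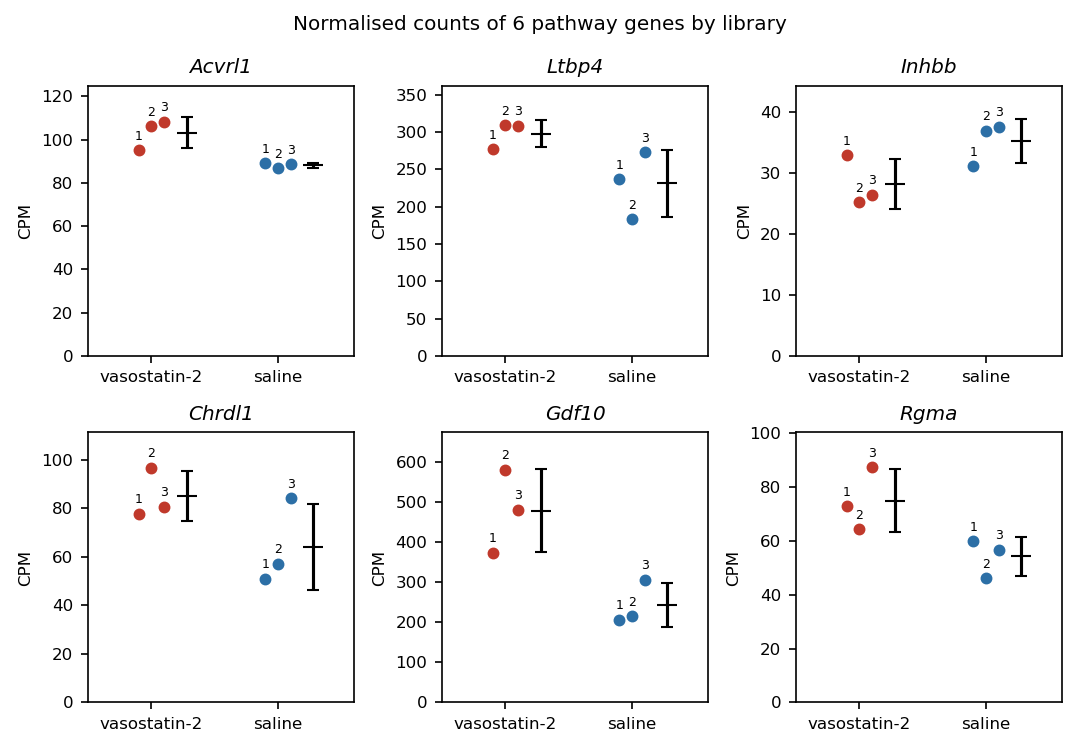
Normalised counts (CPM, axes from 0) of 4 members (Acvrl1, Ltbp4, Inhbb and Chrdl1) and 2 further genes of the pathway (Gdf10 and Rgma) in each library, with replicate numbers beside the points and the mean ± SD to their right. The groups are apart in Acvrl1, Ltbp4, Gdf10 and Rgma, and overlap in Inhbb and Chrdl1.

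A list of 71 further genes of the pathway in the table gave a wider view, and 59 of them were tested. None passed edgeR at an adjusted p of 0.05, 2 were higher and 2 lower at an unadjusted p of 0.05 (6.78%, against 7.14% of all genes), and their median log2 fold change was −0.008. The smallest p was that of Gdf10, also known as BMP-3b, a secreted member of the superfamily, which lies on chromosome 14 from 33923587 to 33936514 (GRCm38.p6). It was at 373, 580.5 and 480.5 CPM in vasostatin-2 arteries, against 206, 215 and 306 CPM in saline arteries. Every vasostatin-2 library was above every saline library, with means of 478 ± 104 against 243 ± 55.5 CPM (SD, n = 3 each). The log2 fold change was 0.98 (SE 0.21), with an unadjusted p of 0.00278 and an adjusted p of 0.453 by edgeR's quasi-likelihood test, and 0.82 to 1.18 when single libraries were left out. DESeq2 gave Gdf10 an adjusted p of 0.00183 and was the only tool of the 3 to call it. In the authors' deposited table its log2 fold change was 0.98 and its q-value 0.00193. That q-value also comes from DESeq2 on the same libraries, so it adds no separate evidence. The adventitial fibroblast marker sums are those given beside Chrdl1, and their part in the Gdf10 values was not tested.

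Rgma, a coreceptor for BMP ligands, was at 72.8, 64.2 and 87.4 CPM in vasostatin-2 arteries, against 59.8, 46.1 and 56.6 CPM in saline arteries, groups that did not overlap (log2 fold change 0.46, SE 0.14; unadjusted p = 0.0143, adjusted p = 0.605 by edgeR). Hey1, a transcription factor induced by Notch and by BMP signalling, was at 6.95, 7.36 and 8.06 CPM in vasostatin-2 arteries, against 8.34, 10.5 and 10.3 CPM in saline arteries (log2 fold change −0.38, SE 0.14; unadjusted p = 0.0275, adjusted p = 0.682 by edgeR). These groups, too, were apart. Tsc22d1, a TGF-beta-stimulated transcriptional regulator, was at 180.3 ± 6.62 CPM in vasostatin-2 arteries, against 203 ± 9.13 CPM in saline arteries (SD, n = 3 each), and the log2 fold change was −0.17 (SE 0.07; unadjusted p = 0.0448, adjusted p = 0.687 by edgeR). Thbs1, thrombospondin 1, an activator of latent TGF-beta, was at 168, 230.4 and 287 CPM in vasostatin-2 arteries, against 539, 242 and 331 CPM in saline arteries, where replicate 1 was far above the rest; its log2 fold change was −0.70 (SE 0.32), and −0.32 without that library. Bmp1, a metalloprotease that cleaves procollagen and matrix proteins in spite of its name, was at 335 ± 41.7 CPM in vasostatin-2 arteries, against 412 ± 72.9 CPM in saline arteries (log2 fold change −0.30, SE 0.15, and −0.14 without saline replicate 1). In the 20 further response genes listed, 19 were tested, with 7 higher and 12 lower and a median log2 fold change of −0.084.

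Much of the spread among members followed single libraries. Saline replicate 2 held the lowest value in 22 of the 41 tested members (53.7%), although it was the lowest library for 23.2% of all tested genes, and saline replicate 1 held the highest in 14 (34.1%, against 21.4% of all genes). The mean level of the members was 5.66, 5.79 and 5.85 log2 CPM in vasostatin-2 arteries, against 5.85, 5.56 and 5.73 log2 CPM in saline arteries. Their median level was 5.85, 5.84 and 5.79 log2 CPM in vasostatin-2 arteries, against 5.79, 5.83 and 5.89 log2 CPM in saline arteries, so by the median saline replicate 2 was not the lowest library nor saline replicate 1 the highest. Saline replicate 2 was also the library with the highest red cell and neutrophil marker sums (43390 and 897 TPM) and the lowest sum of adventitial fibroblast markers (2593 TPM), and their part in the members' values was not tested. Without it 4 members, namely Acvrl1, Pmepa1, Skil and Id2, were at an unadjusted p of 0.05, beside 11.2% of all genes.

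**Figure D4:**
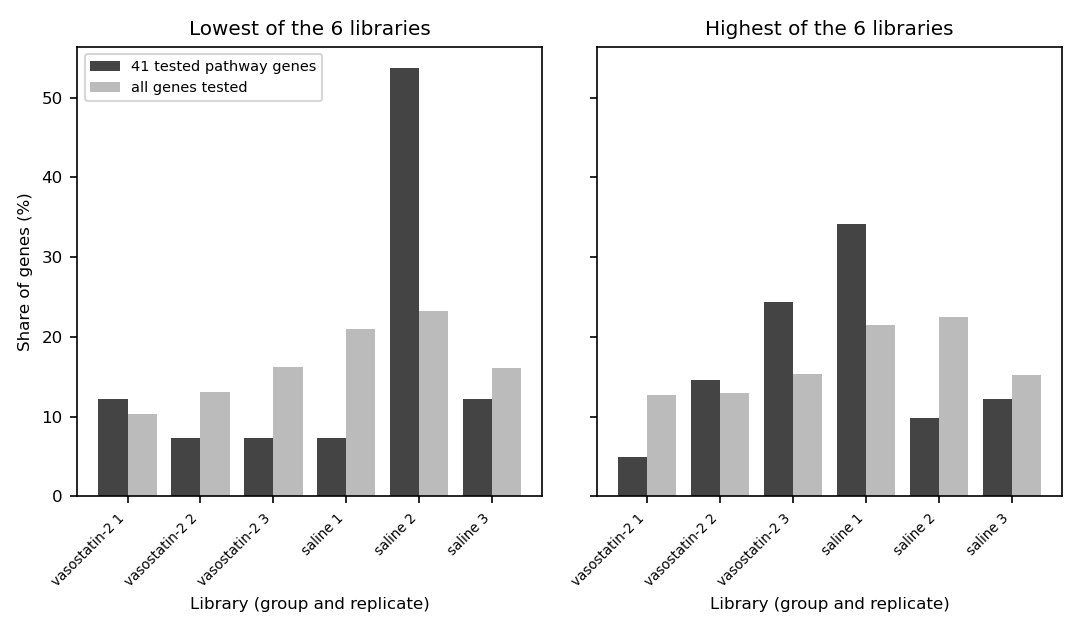
Share of genes (%) for which each library held the lowest (left) or the highest (right) value of the 6, for the 41 tested members (dark bars) and for all genes tested (light bars). Saline replicate 2 was lowest in 53.7% of the members against 23.2% of all genes.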

How the data were processed

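Per the labels' protocols, poly(A)-selected RNA of injured femoral arteries was sequenced on a BGISEQ instrument. GRCm38.p6, HISAT2 2.1.0 and DESeq2 1.26.0 are listed in the submitters' processing notes; the counting tool and its strand setting are not given in the sources used here. The table the authors deposited gives estimated counts per gene (65.6% whole), TPM and FPKM (not used). It also gives p-values, q-values and log2 fold changes of the authors' own DESeq2 test, quoted only where that table is named.

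Estimated counts were rounded, filtered with filterByExpr (14557 genes left), scaled by TMM and tested with edgeR 4.0.16 (R 4.3.3; robust quasi-likelihood test, treatment as the only term, Benjamini-Hochberg adjustment over all genes). Standard errors are the size of the log2 fold change divided by the root of F. CPM values use scaled library sizes; different genes are compared in TPM. The same filtered genes went through DESeq2 1.42.0 and limma-voom (limma 3.58.1). The limma-voom fit used quality weights, which give a library that departs from its group less weight. The edgeR script was checked on simulated counts. Within each group no library was a duplicate of another, and pairs across the groups were not checked. All libraries were treated as 1 batch, and p-values measure the spread between these libraries.

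The members, the further pathway genes and the markers were chosen with earlier results of these data known. Full values are given, in each role, for the 2 members with the highest TPM and the 2 with the smallest p, for every member at an unadjusted p of 0.05 or called in the authors' table (none), and for the 6 further pathway genes of at least 1 CPM with the smallest p; values of Inhba, Smad7, Nog and Grem1 and fold changes of the remaining members were added after they were seen.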

Additional observations from a re-analysis of the deposited data

How the results depend on the processing

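Under all 14 alternatives run (other scaling, no low-count filter, non-robust dispersions, DESeq2, limma-voom, the replicate block, removal of red cell, skeletal muscle and Schwann genes, leaving out each library, and leaving out both replicates numbered 3) no member passed an adjusted p of 0.05. Over all genes DESeq2 called 113, and leaving out single libraries gave 0 to 2 with edgeR. At an unadjusted p of 0.05 limma-voom gave 1572 genes, and leaving out single libraries 496 to 1655 genes and 0 to 6 members. At an unadjusted p of 0.01 there were 0 members and 1 further pathway gene, Gdf10. Of the further pathway genes DESeq2 called 1 (adjusted p; all genes: 0.809%), limma-voom gave 8 at an unadjusted p of 0.05 (all genes: 10.8%), and leaving out single libraries gave 2 to 9 (all genes: 3.36% to 11.2%). Leaving out single libraries put the members' median log2 fold change between −0.012 and 0.072, and that of the membrane and nuclear repressors between −0.21 and −0.075. The cause of these shifts was not tested. Of 30 named genes, 6 turned direction under some setting, none of them called. Leaving out single libraries gave −0.032 to 0.093 for Tgfb1, −0.51 to 0.031 for Tgfb3 and −0.035 to 0.10 for Ltbp3. It gave −0.18 to 0.072 for Tgfbr2, −0.033 to 0.10 for Smad1 and −0.13 to 0.049 for Smad3. Without both replicates numbered 3 Tgfb1 was at −0.082 and Smad1 at −0.034. Members outside those 30 also turned direction when single libraries were left out: Tgfb2, Bmp6, Ltbp2, Tgfbr1, Tgfbr3, Bmpr1b, Smad2, Smad4, Smad7 and Id1.

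Same-numbered libraries did not deviate together (correlations of −0.119, 0.0252 and 0.0276), so the numbers were not taken as pairs. With the replicate block 2 members, Ltbp4 and Acvrl1, were at an unadjusted p of 0.05, beside 6.11% of all genes, and 0 genes passed the adjusted threshold. Low levels limit precision: the standard error of the log2 fold change was 0.32 for Bmpr1b and 0.38 for Nog, against a median of 0.15 over the tested members.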
